A study of Mus musculus with 3 samples.

Results

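Dpp4/Pi16-gated progenitors are stromal cells of mouse inguinal fat that carried transcripts of Dpp4 and Pi16. Dpp4 is a cell-surface dipeptidyl peptidase, and Pi16 a secreted or membrane-anchored protein of the CAP family. The cells had few or no transcripts of selected marker genes of other stromal states. They were selected on measured values, the unique molecular identifiers (UMIs, counts of captured transcripts) of 18 genes in each cell. Cells were kept if they had over 500 genes detected and mitochondrial transcripts below 5% of their UMIs, and a kept cell entered the gate under 6 conditions. These were at least 3 UMIs of Dpp4 and Pi16 together, at most 1 of Icam1 and Fabp4, at most 1 of Krtdap, Dmkn, Sbsn and Bmp3, none of Nr4a3, Fosl1, Nptx2 and Gap43, at most 2 of Cilp and Myoc, and fewer than 10 of Ifit1, Ifit3, Rsad2 and Isg15. The gate held 2511 of 34577 kept cells, which were 1190 of 12984 in mouse 1, 337 of 6414 in mouse 2 and 984 of 15179 in mouse 3.

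In subcutaneous fat, DPP4-positive cells are known as interstitial progenitors that lie in the connective tissue around and between the lobules of adipocytes. They can give rise to ICAM1-positive committed preadipocytes, which express Pparg, the master regulator of adipogenesis, and begin to handle lipid, and to a further stromal type called adipogenesis regulatory cells. Wnt ligands, BMP and TGF-beta family members and elastic fibre proteins are typical products of the interstitial cells, whereas basement membrane collagens and lipid uptake genes are typical of the committed cells.

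Single-cell RNA sequencing was performed on CD31- CD45- cells, that is, cells without the endothelial and pan-leukocyte surface markers, of the inguinal stromal vascular fraction. This fraction is what remains of digested fat once the floating adipocytes are removed. The cells came from 3 male wild-type C57BL/6J mice aged 8 weeks, with 1 library per mouse and a single condition, so each comparison was made between groups of cells from the same animals. The 3 libraries held 95899433, 79801002 and 100846072 UMIs in 13698, 6872 and 16220 barcodes.

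The share of kept cells in the gate was 9.17% in mouse 1 (95% Clopper-Pearson interval 8.67 to 9.67), 5.25% in mouse 2 (4.72 to 5.83) and 6.48% in mouse 3 (6.10 to 6.89), with a mean of 6.97% ± 2.00 (SD, n = 3 mice). Mouse 1 stood above the other two beyond counting error. The intervals cover counting error only. The Nr4a3, Fosl1, Nptx2 and Gap43 condition was the one fewest kept cells met, 39.7%, whereas 66.5% met the Dpp4 and Pi16 condition alone. Gated cells were shallower than the rest in each mouse. They had median totals of 6586.5, 11449 and 5463 UMIs in mice 1, 2 and 3, against 7466, 12238 and 6736 in the other kept cells. After every cell was thinned to 3000 UMIs and shallower cells were left out, the share was 15.6%, 12.7% and 11.8%, a mean of 13.4% ± 1.96. The plot of shares by setting gives these values beside those of other thresholds.

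**Figure D1:**
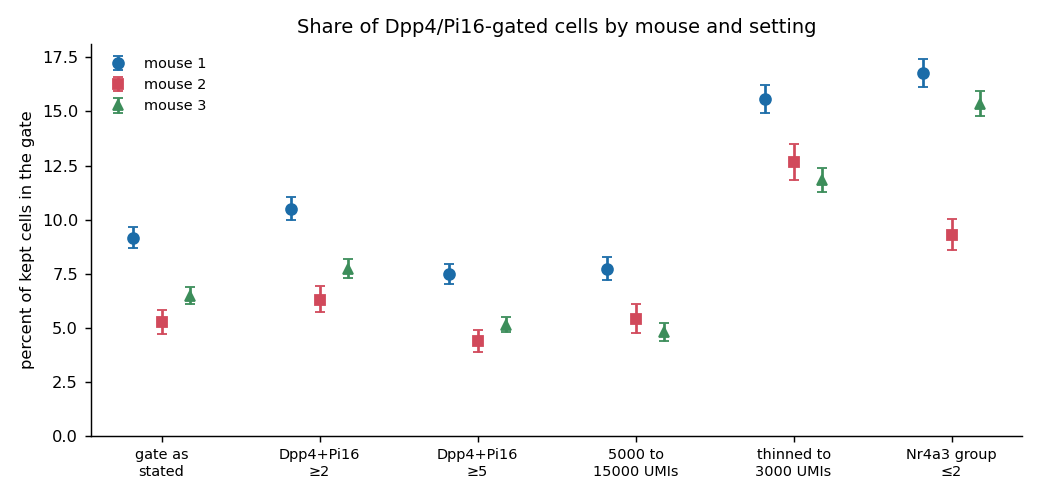
Share of kept cells inside the gate (percent, y axis) under 6 settings (x axis), 1 point per mouse with its exact 95% binomial interval. The share lies between 5.25% and 9.17% as the gate is stated, and between 11.8% and 15.6% once all cells are thinned to 3000 UMIs.

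Within the gate, the median cell of mice 1, 2 and 3 held 4, 3 and 3 UMIs of Dpp4 and 10, 15 and 8 UMIs of Pi16. No Dpp4 UMI was found in 6.47%, 10.4% and 9.04% of gated cells, and no Pi16 UMI in 4.12%, 5.34% and 4.78%. At the edge of the gate, the 284 cells with exactly 3 UMIs of Dpp4 and Pi16 held Edn1 at 28.6 CPM (UMIs of the gene per 1000000 UMIs of the cells summed), and the 429 cells just outside, with 2 UMIs and all other conditions met, held it at 20.5 CPM. In mouse 3 the order was the opposite, 9.81 CPM inside and 19.6 CPM outside. Pooled over mice, Stmn4 was at 56.6 CPM inside and 23.4 CPM outside, Efhd1 at 60.6 and 33.3 CPM, and Tmem100 at 132 and 83.8 CPM. Edn1 encodes the vasoconstrictor peptide endothelin 1. The 1531 cells left out by a single UMI of Nr4a3, Fosl1, Nptx2 or Gap43 held Edn1 at 110 CPM, near the 132 CPM of the gated cells pooled over mice. Pooled over mice, the other markers were higher in the cells left out. Stmn4 was at 126 CPM there and 115 CPM in the gated cells, Efhd1 at 180 and 161 CPM. Tmem100 was nearly equal at 200 and 198 CPM. In mouse 3 Tmem100 was lower in the cells left out, at 173 against 196 CPM, and Stmn4 was nearly equal, at 152.8 and 153.0 CPM. Of the cells that met every other condition, 89.5%, 89.2% and 93.4% in mice 1, 2 and 3 also met that on Cilp and Myoc, and 99.2%, 98.3% and 99.0% that on the interferon genes. At these edges, 26 cells had 3 UMIs of Cilp and Myoc and 0 cells had 10 UMIs of the interferon genes.

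Stromal identity was checked first. Ly6a, which encodes the stem cell antigen SCA1, was detected in 99.7%, 100% and 99.0% of gated cells of mice 1, 2 and 3 thinned to 3000 UMIs. Pdgfra, the receptor that marks fibroblasts and adipocyte progenitors, was detected in 70.3%, 64.8% and 67.6%. Pecam1, which encodes CD31, was detected in 0.313%, 0.317% and 0.140%. In the other kept cells at the same depth these shares were 98.4%, 98.7% and 98.3% for Ly6a, 67.9%, 57.6% and 63.8% for Pdgfra and 0.167%, 0.190% and 0.127% for Pecam1.

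Transcripts of other cell classes were counted in the gate. Of the 2511 gated cells, 8 had 5 or more UMIs of any of 8 marker lists for endothelial, leukocyte, mural, mesothelial, Schwann, epithelial, erythroid and adipocyte cells, against 382 of all kept cells. The 7 endothelial markers summed to 5.54, 1.91 and 0.996 CPM in gated cells of mice 1, 2 and 3 and to 15.8, 18.5 and 3.61 CPM in the other kept cells. Kdr was the most abundant in mice 1 and 3 and Pecam1 in mouse 2. Tie1 and Egfl7 were at 0 in every gated sum, and Cdh5, Cldn5 and Flt1 were also at 0 in mice 2 and 3. The 7 leukocyte markers summed to 4, 116 and 9 UMIs, and a single cell of mouse 2 carried 111 of them. Lyz2 led in mice 2 and 3 and Fcer1g in mouse 1, and Ptprc, which encodes CD45, was at 0 in mice 1 and 3. The 7 mural markers were at 13.03, 17.4 and 13.9 CPM, led by Des or Acta2, against 33.4, 24.5 and 35.2 CPM outside the gate. The sums of the 5 Schwann and 5 mesothelial markers were nearer to those outside. The Schwann markers were at 26.1, 28.3 and 18.7 CPM against 30.4, 29.2 and 25.9 CPM, led by Mbp in the gate, with Sox10 at 0 in every gated sum. The mesothelial markers were at 13.3, 6.53 and 13.1 CPM against 9.46, 5.72 and 17.9 CPM, higher in the gate in mice 1 and 2, and nearly all were of Krt19, with Msln, Lrrn4 and Wt1 at 0. The 5 epithelial markers were at 0.139, 0.272 and 8.56 CPM against 3.84, 9.03 and 31.7 CPM, and the 5 erythroid markers at 1.52, 10.3 and 5.18 CPM against 16.8, 91.7 and 28.7 CPM, led by Hbb-bs. Of the 5 adipocyte markers, Adipoq, Plin1 and Cidec were at 0 in the gated sums of all mice and Retn in mice 1 and 2. Lipe, the hormone-sensitive lipase, was the most abundant, at 2.77, 3.27 and 1.79 CPM in the gate and 3.40, 4.19 and 2.53 CPM outside. Doublets were not removed. Leaving out every cell with 5 or more UMIs of one of these lists gave 49 genes higher and 445 lower in the first comparison below, where 45 and 497 had been called.

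The cells were proposed as resting progenitors marked by Dpp4, Pi16, Edn1, Stmn4, Efhd1 and Tmem100. Of the 4 markers outside the gate, Edn1 and Stmn4 were called higher than in all other kept cells, and Tmem100 and Efhd1 were not. Edn1 (ENSMUSG00000021367, chromosome 13, 42301476 to 42307990, plus strand, in the GENCODE annotation of GRCm38) was at 125, 171 and 112 CPM in gated cells of mice 1, 2 and 3 and at 58.9, 58.1 and 51.6 CPM in the other kept cells. The groups did not overlap. Its log2 fold change was 1.23 (SE 0.072, adjusted p = 8.225e-08 by edgeR's quasi-likelihood test).

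The promoter of Edn1 is given because Edn1 had the largest rise of any gene that could be named against the other kept cells. It surrounds the RefSeq transcription start in GRCm38.p6, at chr13:42301226-42301525 on the plus strand, with capitals where GGAATG matches on the opposite strand:
Edn1: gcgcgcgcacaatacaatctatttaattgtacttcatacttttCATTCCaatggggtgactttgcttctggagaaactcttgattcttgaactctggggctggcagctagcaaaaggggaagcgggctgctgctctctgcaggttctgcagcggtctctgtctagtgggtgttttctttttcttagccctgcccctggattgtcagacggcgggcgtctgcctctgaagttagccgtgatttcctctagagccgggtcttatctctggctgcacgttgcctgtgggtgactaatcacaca
Both strands were searched for TATAAA (the TATA box), for TGANTCA (an AP-1 site), for GGAATG (a TEAD site) and for the DR1 element of PPARG, which is 2 copies of AGGTCA spaced by 1 base, and no matches overlapped here. In this order the motifs occur in 13.6%, 7.81%, 14.7% and 0.0396% of the 32851 promoters of the table. Of the 5 leading rises, 4 had promoters in the table, 6 in all, and the match in Edn1 was the only one among them. A match is a description of the letters in this window.

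Stmn4, a stathmin that destabilises microtubules, was at 99.0, 95 and 153 CPM in gated cells and 71.6, 51.4 and 95.7 CPM in the other kept cells. The groups overlapped, with mouse 3 highest in both, but the gated cells were higher in each mouse, with a log2 fold change of 0.64 (SE 0.065, adjusted p = 1.697e-05, edgeR). Stmn4 was under 1.5-fold without mouse 2 (log2 fold change 0.57), in cells of 5000 to 15000 UMIs (0.57) and with 2 UMIs of Dpp4 and Pi16 as the minimum (0.46). Tmem100, a membrane protein of BMP-responsive cells, differed by 0.43 (SE 0.052) on the log2 scale, below the 1.5-fold minimum, although its levels of 194, 209 and 196 CPM lay above the 148, 148 and 142 CPM of the other kept cells. Efhd1, a calcium-binding mitochondrial protein, was at 151, 159 and 178 CPM against 138, 118 and 169 CPM, and its difference did not pass the test (log2 fold change 0.19, adjusted p = 0.06774, edgeR).

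Against single comparison groups, the same markers took a different order. Edn1 was detected in 19.5%, 23.2% and 15.5% of gated cells at 3000 UMIs and in 1.18%, 1.55% and 0.659% of cells gated on Icam1 and Fabp4. In all other kept cells it was detected in 10.3%, 9.74% and 9.12%. Of other kept cells with at least 3 UMIs of Pecam1, Cdh5 and Kdr, 2 of 38, 1 of 18 and 2 of 10 had a UMI of Edn1. The level of free RNA was not measured. Median depths were 6586.5, 11449 and 5463 UMIs in the gated cells and 7840, 12800 and 6982 UMIs in the Icam1/Fabp4-gated cells. In cells gated on Krtdap, Dmkn, Sbsn and Bmp3, Edn1 was at 133, 289 and 147 CPM and Efhd1 at 271, 322 and 308 CPM. Efhd1 was lower in Dpp4/Pi16-gated cells than there, with a log2 fold change of -0.84 (SE 0.059, adjusted p = 2.687e-10, edgeR), and so was Stmn4, at -0.72 (SE 0.067, adjusted p = 2.4e-08, edgeR). Edn1 had a log2 fold change of -0.38, under the minimum fold. None of the 4 markers had its highest mean level in the Dpp4/Pi16-gated cells.

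**Figure D2:**
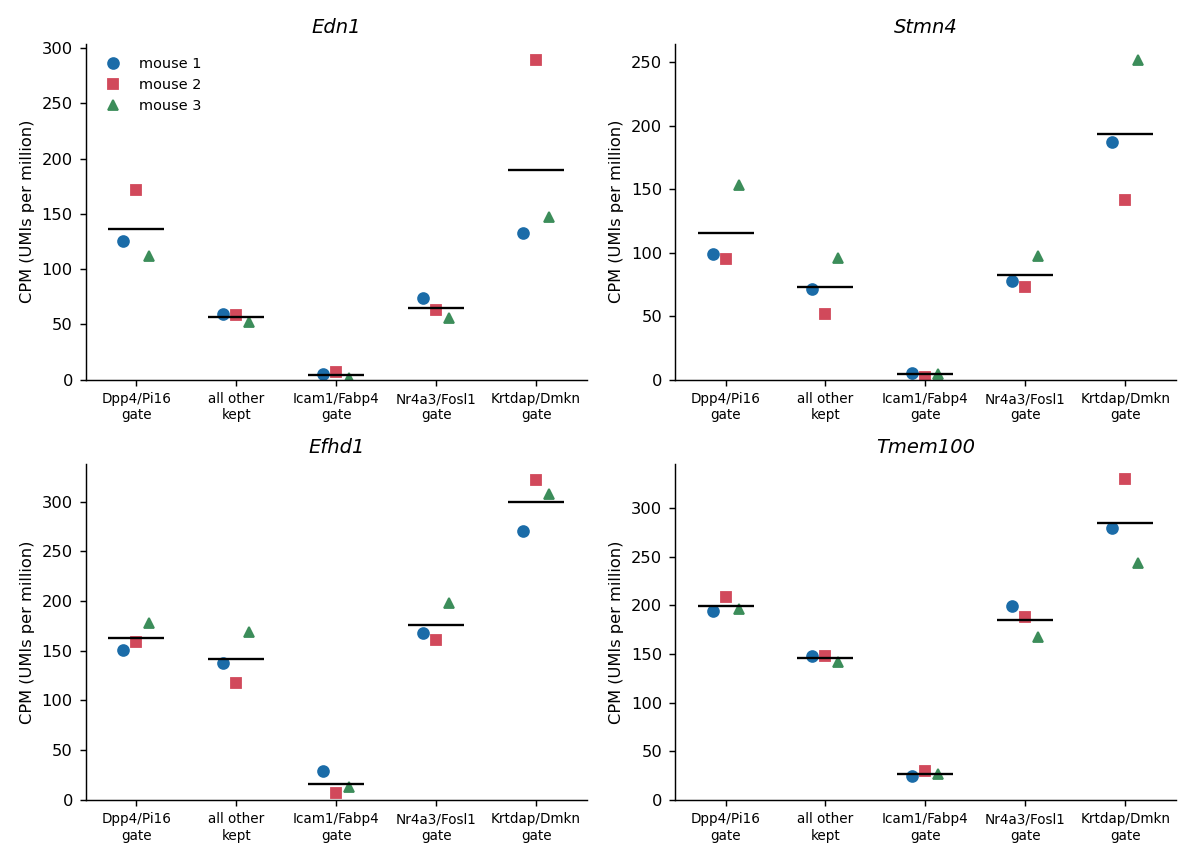
Edn1, Stmn4, Efhd1 and Tmem100 (CPM, y axis from 0) in 5 groups of cells (x axis), with 1 symbol per mouse and a line at the mean of 3 mice. All 4 genes are lowest in Icam1/Fabp4-gated cells and have their highest mean in Krtdap/Dmkn-gated cells.

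The word resting was compared with immediate-early genes, which are induced within minutes by stress, dissociation included. The gate allowed no UMI of Nr4a3 or Fosl1, but other immediate-early genes were abundant in it. Fos, a subunit of the AP-1 transcription factor, was at 4524, 3696 and 3251 CPM in gated cells and at 3864, 2807 and 2312 CPM in the other kept cells. These ranges overlapped, and the log2 fold change was 0.35 (SE 0.048), under 1.5-fold. Of 21 immediate-early genes outside the gate, none was called higher than in the other kept cells and 3 were lower, Nr4a2, Egr3 and Maff (edgeR; at an unadjusted p under 0.05, 7 were higher and 10 lower, and DESeq2 called 0 and 3). Over all genes tested, 0.32% were called higher and 3.54% lower, so the count of 0 is near the background. The label resting was not tested further, and the cells are called by their rule here.

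The comparison with all other kept cells asked what else went with the gate. Most of those other cells also met the Dpp4 and Pi16 condition, since 22996 of 34577 kept cells met it and 2511 were gated. Dpp4 was at a mean of 645.5 CPM in gated cells and 499 CPM in the others, and Pi16 at 2493 and 2301 CPM. Of 14045 genes tested, 45 (0.32%) were called higher and 497 (3.54%) lower in the gated cells, at an adjusted p under 0.05 and at least 1.5-fold. The falls included genes of committed preadipocytes, lipid handling genes and chemokines. Markers of other cell classes were among them too, with 4 of 5 endothelial, 4 of 7 mural, 2 of 4 Schwann, 3 of 3 epithelial and 4 of 4 erythroid genes tested called lower. Without cells with 5 or more UMIs of such a list, 0 endothelial, 1 mural, 1 Schwann and 0 erythroid genes were called lower and no epithelial gene could be tested. The median log2 fold change over all genes tested was 0.0060.

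Only 5 of the called rises went the same way in all mice and averaged 50 CPM or more in either group. Besides Edn1 and Stmn4 they were Engase, Fam71a and Arrdc3. Engase, a cytosolic enzyme that removes N-glycans, was at 68.5, 86.6 and 67.9 CPM against 36.9, 39.2 and 39.8 CPM, with no overlap and a log2 fold change of 0.91 (SE 0.068). Arrdc3, an arrestin-domain protein that binds receptors at the membrane, was at 90.4, 96.1 and 77.3 CPM against 62.8, 48.1 and 54.1 CPM, also without overlap, with a log2 fold change of 0.65 (SE 0.075). Fam71a was at 45.9, 82.2 and 28.5 CPM against 32.3, 40.8 and 18.4 CPM, so that the groups overlapped, with a log2 fold change of 0.70.

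The 12 leading falls included matrix and matricellular genes. Thbs1, which encodes thrombospondin 1, fell by 2.40 on the log2 scale (SE 0.275), from 69.6, 86.5 and 77.5 CPM in the other kept cells to 10.4, 2.45 and 30.1 CPM in gated cells. Sparcl1, a matricellular protein, was at 122, 57.7 and 81.3 CPM against 522, 310 and 288 CPM, a log2 fold change of -2.11 (SE 0.089). The groups did not overlap for either gene. Col15a1, a collagen of the basement membrane zone, fell by 2.06 and Bgn, the proteoglycan biglycan, fell by 1.24. Of 13 basement membrane genes, 4 were lower (Sparcl1, Col15a1, Col4a2 and Col4a1) and none higher, with a median log2 fold change of -0.14. At an unadjusted p under 0.05, 4 of these 13 were higher and 7 lower, and DESeq2 also called 0 and 4.

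Of 22 lipid-handling genes tested, 9 were lower and none was higher (edgeR; 3 higher and 11 lower at an unadjusted p under 0.05; DESeq2 called 0 and 8), with a median log2 fold change of -0.43. Plin2, which coats lipid droplets, was at 83.7, 71.6 and 79.3 CPM against 223, 216 and 176 CPM, a log2 fold change of -1.397 (SE 0.076) without overlap. Cd36, a fatty acid uptake receptor, was at 9.70, 2.45 and 2.79 CPM against 70.7, 30.2 and 26.5 CPM, a log2 fold change of -3.04. Apoe, a lipid transport protein, fell by 1.92 and G0s2, an inhibitor of the lipase ATGL, fell by 1.41. The other leading falls were Enpp2, which makes lysophosphatidic acid, Gpm6b, a membrane glycoprotein, Cxcl14, a chemokine, and the orphan nuclear receptor Nr4a2. Of 10 genes listed for committed preadipocytes, 9 were lower, with a median of -1.40, and the gate had excluded cells by Fabp4 and Icam1 of the same class.

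Of 16 cytokine and chemokine genes, 8 were lower and none was higher (edgeR; 1 higher and 13 lower at an unadjusted p under 0.05; DESeq2 called 0 and 6), with a median of -0.56. Ccl2, which attracts monocytes, was at 727, 624 and 1669 CPM in gated cells and 1291, 1672 and 2772 CPM in the other kept cells. Mouse 3 was highest in both groups, so the groups overlapped although the gated cells were lower in each mouse, with a log2 fold change of -1.01 (SE 0.101). Cxcl2, which attracts neutrophils, fell by 1.69, from 79.9, 87.4 and 185 CPM to 33.3, 9.26 and 64.7 CPM. When the Dpp4 and Pi16 condition was applied alone, the log2 fold change of Cxcl2 turned to 1.915 and that of Nr4a2 to 2.28.

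Of 24 genes listed for interstitial progenitors, none was called in either direction by edgeR or DESeq2, beside 0.32% higher and 3.54% lower over all genes, and the median log2 fold change was 0.14. Since most of the other kept cells also met the Dpp4 and Pi16 condition, this comparison does not set cells with these transcripts against cells without them. With that condition alone as the gate, the log2 fold change of Cd55, a gene of this list, was 3.00. At an adjusted p under 0.05 with no minimum fold, 10 were higher and 0 lower (edgeR), and at an unadjusted p under 0.05, 15 were higher and 3 lower. Smpd3, a neutral sphingomyelinase, is one of them, at 370, 496 and 533 CPM against 267, 362 and 409 CPM (log2 fold change 0.42, under the minimum fold). Wnt2 was at 60.3, 65.9 and 75.1 CPM against 65.9, 64.9 and 82.1 CPM, and Bmp7 at 36.2, 25.6 and 34.7 CPM against 35.7, 35.6 and 41.4 CPM. Neither gene passed the test. The 45 rises were the less stable count in this comparison, being 69 without mouse 1 and 0 without the mouse as a block, where 241 genes were higher at an unadjusted p under 0.05, and the falls became 11 without the block. Without it, 2 of the lipid-handling, 2 of the committed preadipocyte, 1 of the basement membrane and 0 of the cytokine genes were called lower.

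The comparison with Icam1/Fabp4-gated cells set the progenitors against preadipocyte-like cells. These comparison cells had at least 3 UMIs of Icam1 and Fabp4, at most 1 of Dpp4 and Pi16, and met the other conditions, which gave 1573, 869 and 1137 cells. All listed interstitial genes were higher, 13 of 22 lipid-handling and 7 of 13 basement membrane genes were lower, and 2 of each of these lists were higher. Of 11631 genes tested, 1326 (11.4%) were higher and 1199 (10.3%) lower in Dpp4/Pi16-gated cells, with a median log2 fold change of -0.0099. In cells of 5000 to 15000 UMIs, 1276 were higher and 1169 lower. Markers of other cell classes moved as well: the endothelial Cldn5 and Pecam1 (2 of 3 tested), the mural Myh11, Notch3 and Acta2 (3 of 5), the Schwann marker S100b and Lipe were lower, and Krt19, Hbb-bs and the Schwann marker Mbp were higher. Without cells with 5 or more UMIs of such a list, no endothelial gene could be tested, 2 of 4 mural genes were lower and 2 higher, and all genes gave 1330 higher and 1173 lower.

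All 24 interstitial progenitor genes were higher, with a median log2 fold change of 2.39. The list was drawn up with earlier results of these data known and the groups were gated to opposite sides of Dpp4 and Pi16, so this count is a description and no independent evidence. Sema3c, a secreted guidance cue, was at 505, 276 and 628 CPM against 29.3, 17.1 and 45.2 CPM, a log2 fold change of 3.97 (SE 0.082). Limch1, an actomyosin regulator, was at 78.6, 43.6 and 95.8 CPM against 2.30, 1.58 and 2.09 CPM, a log2 fold change of 5.14. Anxa3, a phospholipid-binding annexin, was at 1099, 1130 and 1135 CPM against 87.8, 51.0 and 61.2 CPM. The groups did not overlap for any of these genes. The smallest changes in the list were those of Timp2, a protease inhibitor, and Dpt, dermatopontin, each at 0.79.

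The leading rises by the naming rule were Sema3e, Limch1, Aldh1a3, Smpd3, Edn1, Stmn4, Car8 and Akr1c18. Aldh1a3, which makes retinoic acid, was at 85.9, 71.3 and 104 CPM against 2.46, 1.297 and 4.05 CPM, a log2 fold change of 5.11 (SE 0.143). Edn1 differed by 4.90 (SE 0.162), from 4.93, 6.58 and 1.70 CPM in the comparison cells. Ednra, which encodes the receptor that endothelin 1 binds on smooth muscle and stromal cells, was lower in Dpp4/Pi16-gated cells of each mouse. It was at 0.554, 0.272 and 0.598 CPM there and 7.89, 4.45 and 4.83 CPM in Icam1/Fabp4-gated cells, a log2 fold change of -3.56 (SE 0.353). The levels in Dpp4/Pi16-gated cells rest on few UMIs, and that of mouse 2 lay under a floor of 0.817 CPM. The direction was thus common to all mice, but the size of the fold is uncertain. Ece1, which cleaves the endothelin precursor, was at 89.5, 72.4 and 91.0 CPM against 78.6, 64.3 and 78.7 CPM and did not pass the test (adjusted p = 0.05138, edgeR). Of 18 vasoactive genes tested, 6 were higher and 4 lower, with a median of 0.18, beside 11.4% higher and 10.3% lower over all genes.

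Of 30 Wnt genes tested, 16 were higher and 6 lower, with a median of 0.65, and 6 of the 16 were Wnt ligands. Among ligands, Wnt10b was at 28.8, 22.1 and 34.3 CPM against 1.56, 1.11 and 1.70 CPM, a log2 fold change of 4.26 (SE 0.156), and Wnt2 was higher by 2.79. Sfrp4, a secreted antagonist, was higher by 3.32, and Axin2, a target and feedback inhibitor of the pathway, by 2.34. The genes that were lower were the receptors and co-receptors Lrp5, Ror1, Fzd4 and Fzd1, the inhibitor Nkd1 and the transcription factor Tcf7l2, which fell by 0.67. Receptors were thus on both sides, since Fzd8, Ror2 and Fzd2 were among the 16 higher genes, by 0.94, 0.86 and 0.63. Among 35 BMP and TGF-beta genes, 15 were higher and 6 lower, with a median of 0.44. The ligand Bmp7 was at 36.2, 25.6 and 34.7 CPM against 1.396, 0.0926 and 1.31 CPM, and Tgfb2 was higher by 2.51, while Fst, the activin antagonist follistatin, fell by 0.90.

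The surface profile changed in part. Procr, the endothelial protein C receptor, was at 406, 489 and 421 CPM against 52.5, 87.5 and 86.4 CPM, a log2 fold change of 2.57 (SE 0.115), and Cd55, the complement decay-accelerating factor, was higher by 2.54. Vcam1, an adhesion receptor, fell by 2.47. Pdgfra did not pass the test (log2 fold change -0.02, adjusted p = 0.7978, edgeR), with 515, 356 and 453 CPM against 505, 333 and 513 CPM. In all, 10 of 22 progenitor surface genes were higher and 5 lower, with a median of 0.42.

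Matrix genes were called in both directions, beside 11.4% higher and 10.3% lower over all genes, and the lists were not tested against each other. Of 11 fibrillar collagen genes tested, 2 were higher (Col14a1 and Col12a1) and 4 lower (Col5a3, Col6a3, Col6a2 and Col6a1), with a median of -0.35. Of 20 microfibril and elastic fibre genes, 11 were higher and 3 lower, with a median of 0.67. Fbn1, the fibrillin of microfibrils, was at 1982, 1200 and 1981 CPM against 576, 382 and 610 CPM, a log2 fold change of 1.71 (SE 0.060). Of 13 basement membrane genes, 2 were higher and 7 lower, with a median of -0.80. Col4a1, a chain of type IV collagen, was at 881, 513 and 636 CPM against 3855, 2811 and 3978 CPM, a log2 fold change of -2.41 (SE 0.091). The groups overlapped for neither gene. The leading falls were the junction protein Cldn15, Olfm2, the laminin chain Lamc3, the guanylyl cyclase subunit Gucy1a1, Fbln7, Cd36, Sparcl1 and the metalloprotease Adam12, with log2 fold changes from -6.03 to -3.78.

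Of 22 lipid-handling genes, 13 were lower and 2 higher, with a median of -0.99. Pparg was at 10.5, 8.17 and 9.96 CPM against 56.5, 49.4 and 53.0 CPM, a log2 fold change of -2.46 (SE 0.104) without overlap. Lpl, which releases fatty acids from lipoproteins, was at 731, 654 and 591 CPM against 3315, 2878 and 3118 CPM, a log2 fold change of -2.24. The exceptions were Mgll, a monoglyceride lipase, which was higher by 2.74 at 107, 96.6 and 129 CPM against 17.4, 19.1 and 12.1 CPM, and the desaturase Scd1, higher by 1.19. Of 18 adipogenic factors, 6 were lower and 2 higher, Ebf2 and Foxo1, with a median of -0.28. Over all genes in this comparison 11.4% were higher and 10.3% lower, so the counts of higher lipid-handling genes and adipogenic factors are near the background. Ribosomal protein transcripts made up a median of 13.8%, 16.5% and 13.9% of UMIs in Dpp4/Pi16-gated cells and 11.5%, 12.4% and 11% in the comparison cells, and their part in these differences was not tested.

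**Figure D3:**
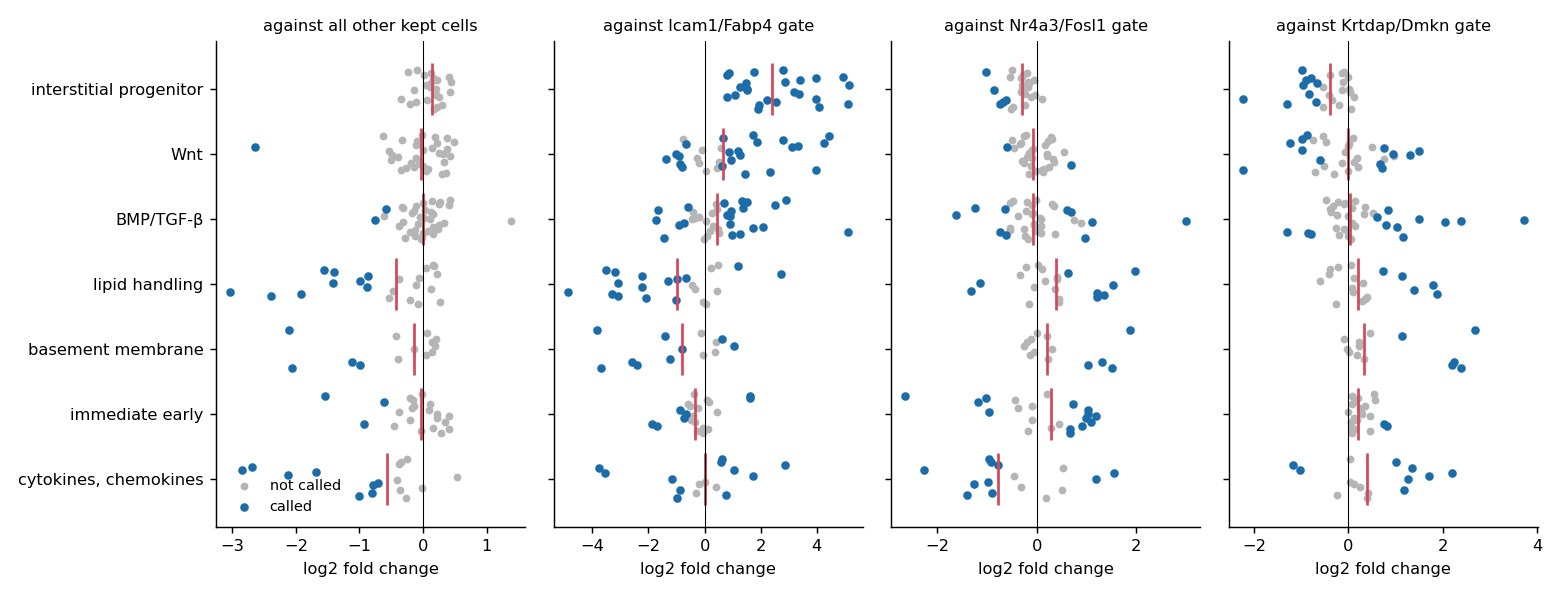
Log2 fold change (x axis) of each tested gene of 7 lists (y axis) in Dpp4/Pi16-gated cells against 4 groups, with genes past the test in blue, others in grey and the list's median as a red line. The interstitial progenitor genes lie around 0.14 against all other kept cells and around 2.39 against Icam1/Fabp4-gated cells, and their median is below 0 against the other two gates.

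The comparison with Nr4a3/Fosl1-gated cells asked how the progenitors differed from cells with at least 3 UMIs of Nr4a3, Fosl1, Nptx2 and Gap43, all other conditions being the same. These were 1230, 567 and 2398 cells. The Dpp4/Pi16-gated cells had fewer transcripts of Ccl2, Cxcl1 and Cxcl2, of Srxn1 and of Hmox1, and more of Fos, Jun, Hspa1a and Hspa1b. Of 11217 genes tested, 444 (3.96%) were higher and 415 (3.7%) lower, a split of 51.7% higher. With library size alone as the scale, 808 were higher and 310 lower, a split of 72.3%, and the median over all genes moved from -0.0031 to 0.112, so the balance of directions here depends on the scale. DESeq2 called fewer genes in each direction and more falls than rises, as given under the processing below. Without mouse 3 the rises were 229, after thinning to 3000 UMIs 247, and without the mouse as a block 18, with 29 falls. Markers of other cell classes moved here too: the endothelial Kdr (1 of 1 tested) and the mural Kcnj8 and Des (2 of 3) were lower, and the mesothelial Krt19 (1 of 1) was higher. Kdr was at 3.88, 0.544 and 0.797 CPM against 11.5, 2.20 and 2.85 CPM. Without cells with 5 or more UMIs of such a list, 1 of 1 endothelial and 2 of 2 mural genes were still lower. Without mouse 3, 0 of 4 mural genes were called, and without the block none of these markers was.

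Immediate-early genes changed in opposite directions. Of 21, 9 were higher in Dpp4/Pi16-gated cells (Hspa1b, Fos, Jun, Ier2, Hspa1a, Egr2, Klf6, Atf3 and Dusp1) and 4 lower (Nr4a2, Maff, Nr4a1 and Ier3), with a median log2 fold change of 0.28. Fos was at 4524, 3696 and 3251 CPM against 2196, 1856 and 1084 CPM, a log2 fold change of 1.08 (SE 0.112, adjusted p = 0.0002802, edgeR) without overlap. Hspa1a, an inducible HSP70 chaperone, was at 526, 1052 and 959 CPM against 273, 382 and 494 CPM, a log2 fold change of 1.00. Nr4a1, an orphan nuclear receptor of the same family as the excluded Nr4a3, was at 294, 369 and 374 CPM against 667, 745 and 530 CPM, a log2 fold change of -1.02 (SE 0.118).

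Of 15 cytokine and chemokine genes tested, 8 were lower and 2 higher (Cxcl14 and Cxcl12), with a median of -0.78. Ccl2 fell by 1.404 (SE 0.131) and Il6, the interleukin of acute inflammation, fell by 0.91. Cxcl1, a neutrophil chemokine, fell by 1.27, from 2303, 2927 and 3830 CPM to 1253, 929 and 2030 CPM. Among the leading falls were Nr4a2, Cxcl2, Emd, a protein of the inner nuclear membrane, Srxn1, which repairs oxidised peroxiredoxins, Ell2, an elongation factor, the histone methyltransferase Nsd3 and Hmox1, which degrades haem. Srxn1 was at 78.5, 52.0 and 149 CPM against 223, 285 and 388 CPM, a log2 fold change of -1.84 (SE 0.179). Of 24 interstitial progenitor genes, 5 were lower (Ugdh, Gfpt2, Bmp7, Cd55 and Creb5) and none was higher, with a median of -0.29. At an unadjusted p under 0.05, 20 of the 24 were lower and 0 higher, and DESeq2 called 5 lower. The 5 became 3 after thinning, with library size alone as the scale and without mouse 2. Without the block, 0 of these genes and 0 of the cytokine genes were called lower, and 0 immediate-early genes were higher and 1 lower.

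The leading rises were Sparcl1, Txnip, Cxcl14, Col15a1, Fam71a, Apoe, Col4a2 and Angptl4, between 1.22 and 1.87 on the log2 scale. Txnip, the thioredoxin-interacting protein, was at 307, 348 and 290 CPM against 96.2, 90.2 and 62.7 CPM, a log2 fold change of 1.82 (SE 0.098) without overlap. Of 8 committed preadipocyte genes tested, 7 were higher, with a median of 1.12, but 3 after thinning to 3000 UMIs and 2 without the block. Edn1 was higher by 0.93 (SE 0.095), at 73.5, 63.3 and 56.0 CPM in the comparison cells.

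The comparison with Krtdap/Dmkn-gated cells took cells with at least 4 UMIs of Krtdap, Dmkn, Sbsn and Bmp3 and all other conditions met, 522, 191 and 354 cells. The Dpp4/Pi16-gated cells carried more transcripts of regulatory and preadipocyte genes and less of several interstitial genes. Of 10418 genes tested, 380 (3.65%) were higher and 228 (2.19%) lower, with a median log2 fold change of -0.0068. Both counts fell without the mouse as a block, to the values given under the processing below. All 7 genes listed for adipogenesis regulatory cells were higher, with a median of 2.27, and so were 7 of 7 tested committed preadipocyte genes, with a median of 2.12. After thinning, 4 of 5 tested genes of the latter list were higher. Without the block, 6 of 7 regulatory and 5 of 7 committed preadipocyte genes were higher. Among markers of other cell classes, Krt19 and Mbp were lower and S100b was higher. Fmo2, a flavin monooxygenase, was at 32.2, 50.1 and 35.7 CPM against 4.67, 2.43 and 7.85 CPM, a log2 fold change of 2.97 (SE 0.217). Gdf10, a BMP family ligand, was at 151, 308 and 146 CPM against 39.7, 64.6 and 42.2 CPM, a log2 fold change of 2.05 (SE 0.083). The groups overlapped for neither gene.

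Of the 24 interstitial progenitor genes, 9 were lower and none higher against these cells, with a median of -0.40. At an unadjusted p under 0.05, 17 were lower and 1 higher. DESeq2 called 9 lower, and without the block 6 were lower. Wnt2 was at 60.3, 65.9 and 75.1 CPM against 132, 130 and 144 CPM, a log2 fold change of -0.99 (SE 0.073). Bmp7 fell by 1.31 and Limch1 fell by 0.97. Among the other leading falls, Itgb7, an integrin chain, was at 10.9, 4.08 and 15.7 CPM against 88.8, 97.6 and 91.3 CPM, a log2 fold change of -3.06 (SE 0.171). Ptgs1, the constitutive cyclooxygenase, fell by 2.65 and Akr1c18, a steroid dehydrogenase that inactivates progesterone, fell by 2.11. The leading rises besides Sparcl1, Col15a1 and Bgn were Ccn5, Cyp26b1, which degrades retinoic acid, Gas6, a ligand of TAM receptors, Steap4, a metalloreductase, and Cav1, caveolin 1. DESeq2 called 224 higher and 133 lower in this comparison.

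Within the gate, the levels of other genes moved along Dpp4 and Pi16. Gated cells with at least 3000 UMIs were sorted by their Dpp4 and Pi16 UMIs after thinning to 3000, into 0 to 2, 3 to 5, 6 to 10 and over 10. The outer groups held 196 and 359 cells in mouse 1, 96 and 114 in mouse 2 and 134 and 273 in mouse 3. Edn1 was at 44.4, 50.2 and 27.6 CPM in the lowest group and 159, 308 and 168 CPM in the highest. Smpd3 was at 126, 243 and 213 CPM in the lowest and 548, 778 and 757 CPM in the highest. Stmn4 was at 74.8, 71.1 and 103 CPM in the lowest and 115, 107 and 161 CPM in the highest. Its peak lay in a middle group in mouse 2 (128 CPM at 3 to 5 UMIs) and mouse 3 (166 CPM at 6 to 10). Col15a1 ran the other way, from 252, 131 and 257 CPM to 18.7, 5.80 and 18.3 CPM. Fos changed little in comparison, from 4440, 3819 and 3951 CPM to 4901, 3272 and 3148 CPM, up in mouse 1 and down in mice 2 and 3. The values are given as a description.

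**Figure D4:**
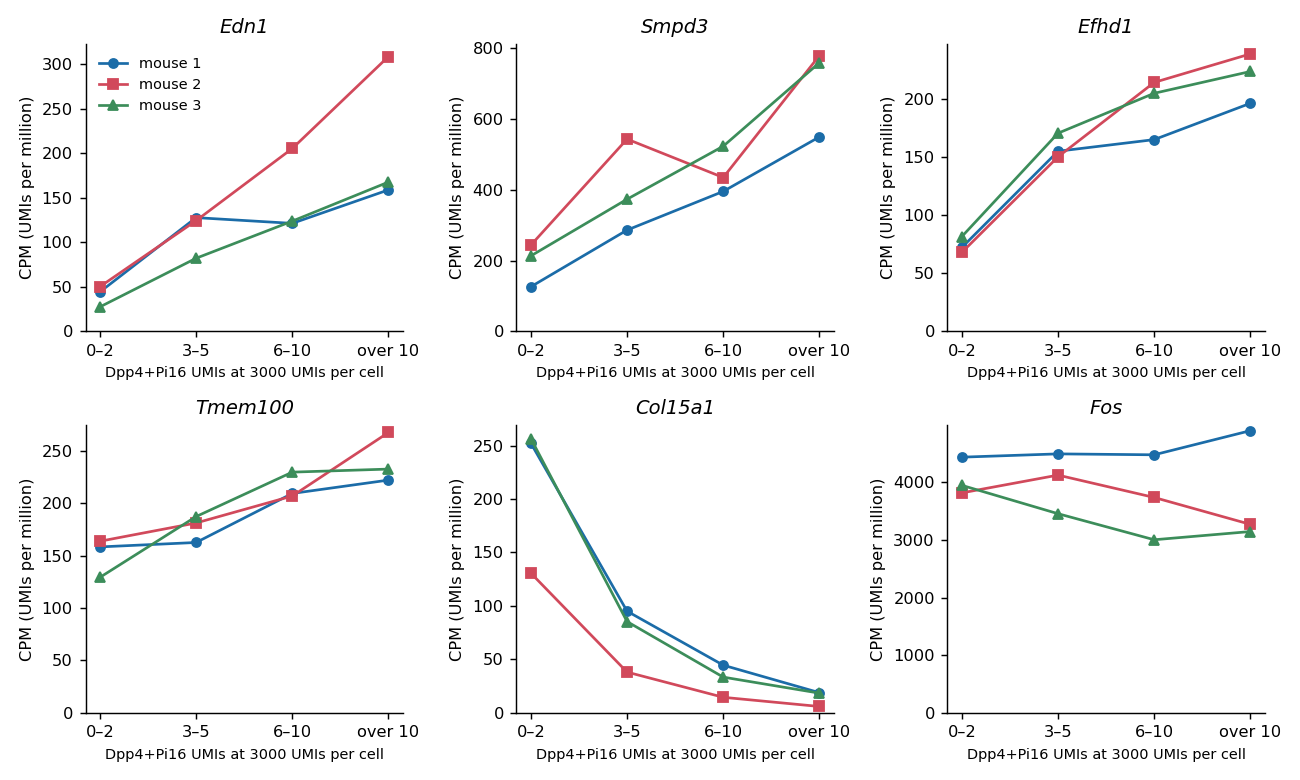
Levels (CPM, y axes from 0) of 6 genes in gated cells sorted by Dpp4 and Pi16 UMIs at equal depth (x axis), 1 line per mouse. Edn1, Smpd3, Efhd1 and Tmem100 have their highest level in the group over 10 UMIs in each mouse, Col15a1 its lowest, and Fos shows no common direction.

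A split of the gate by which of its defining transcripts prevailed gave 2 unequal groups. Pi16 UMIs outnumbered Dpp4 UMIs in 896, 281 and 745 cells (Pi16-leaning), Dpp4 UMIs outnumbered Pi16 UMIs in 252, 51 and 184 cells (Dpp4-leaning), and 42, 5 and 55 cells were tied. The split used transcripts of the gate itself, so a call says only that a difference in another gene recurred over the 3 mice. The groups also differed in the total of both transcripts, with medians of 19, 28 and 16 UMIs of Dpp4 and Pi16 in Pi16-leaning cells and 6, 4 and 5 UMIs in Dpp4-leaning cells. Of 9688 genes tested, 172 (1.78%) were higher and 136 (1.4%) lower in Pi16-leaning cells, with a median log2 fold change of 0.0016. Pi16-leaning cells were shallower, with median totals of 6441.5, 11143 and 5361 UMIs against 7338.5, 13827 and 6160. In cells of 5000 to 15000 UMIs, 179 genes were higher and 130 lower. Of the markers of other cell classes, 3 could be tested, and Mbp was higher by 0.96. When cells were thinned to 3000 UMIs before the gate, the counts were 55 and 38, and without the mouse as a block they were 7 and 2. DESeq2 also called fewer genes in each direction, with slightly more falls than rises, as given under the processing below.

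Levels that differed in the split also moved with the total of Dpp4 and Pi16. Aldh1a3 rose along that total in the sorting above, from 8.87, 11.6 and 14.8 CPM in the lowest group to 156, 140 and 178 CPM in the highest, and Col4a1 ran from 1936, 979 and 1731 CPM to 361, 161 and 222 CPM. When the split was made among cells with 3 to 10 UMIs of Dpp4 and Pi16, 11 genes were higher and 1 lower of 7549 tested (edgeR; 340 and 244 at an unadjusted p under 0.05). Of the 16 leading genes, Il33 kept its call, with a log2 fold change of 2.29 (adjusted p = 0.03621, edgeR), and the other 15 did not pass. Their log2 fold changes were smaller in size there, by different amounts. That of Crispld1 was 1.21, where it had been 1.29 over all cells, and that of Aldh1a3 was 0.95, of S100a4 -1.08 and of Col4a1 -0.40. For Crispld1 the fold was thus nearly as large although the call was lost (adjusted p = 0.1248, edgeR). F3 turned from -0.41 to 0.87, neither of which passed the test. That setting held fewer cells, 245, 75 and 254 Pi16-leaning and 195, 45 and 149 Dpp4-leaning, with median depths of 3583, 10744 and 3012.5 against 7395, 14646 and 6051 UMIs. The values that follow are for all cells of the split and cannot be told apart from the difference in total, except where stated.

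Il33, an alarmin cytokine, was at 77.0, 39.0 and 87.7 CPM in Pi16-leaning cells and 17.7, 1.42 and 20.0 CPM in Dpp4-leaning cells, a log2 fold change of 2.27 (SE 0.188, adjusted p = 1.142e-07, edgeR). Aldh1a3 was at 110, 87.6 and 123 CPM against 20.0, 11.3 and 37.1 CPM, a log2 fold change of 2.22 (SE 0.157). Cdkn1c, the cell cycle inhibitor p57, was at 59.7, 85.2 and 67.6 CPM against 21.2, 9.92 and 11.4 CPM, a log2 fold change of 2.08. The groups did not overlap for any of these genes. The next were Col12a1, Akr1c18, the carbonic anhydrase-related Car8, the aminopeptidase Lvrn and Crispld1, which overlapped. Edn1 was higher by 0.99 (SE 0.113) and Efhd1 by 1.06 (SE 0.106), whereas Stmn4 did not pass the test (log2 fold change 0.27, adjusted p = 0.2588, edgeR).

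Of 27 Wnt genes tested, 8 were higher in Pi16-leaning cells and none was lower, with a median of 0.31. At an unadjusted p under 0.05, 13 were higher and 1 lower. The 8 were Axin2, Wnt10b, Dact2, Wnt5b, Sfrp1, Wnt11, Sfrp2 and Wnt2. Wnt10b was at 34.3, 26.9 and 38.9 CPM against 12.96, 2.84 and 17.1 CPM, a log2 fold change of 1.50 (SE 0.225). The Wnt count was 4 without mouse 1, 5 without mouse 2, 3 after thinning, 0 without the block and 0 in cells with 3 to 10 UMIs of Dpp4 and Pi16, and DESeq2 called 3. Of 24 interstitial progenitor genes, 9 were higher and none lower, with a median of 0.47, with 2 higher after thinning and 0 without the block or in cells with 3 to 10 UMIs of Dpp4 and Pi16. Bmp7 was higher by 1.74 and Smpd3 by 0.94.

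Of 11 fibrillar collagen genes tested, 6 were lower in Pi16-leaning cells (Col5a3, Col3a1, Col6a2, Col5a2, Col6a3 and Col1a1) and 1 was higher, Col12a1, with a median of -0.62. Col3a1, the chain of type III collagen, was at 12220, 12310 and 12120 CPM against 21030, 24260 and 18940 CPM, a log2 fold change of -0.81 (SE 0.055) without overlap. No fibrillar collagen gene was called lower after thinning to 3000 UMIs before the gate, without the block, or in cells with 3 to 10 UMIs of Dpp4 and Pi16. Of 13 basement membrane genes, 4 were lower and none higher, with a median of -0.32, and Col4a1 fell by 1.39 (SE 0.056). The 4 became 1 without the block and 0 in cells with 3 to 10 UMIs of Dpp4 and Pi16. The largest falls were those of Scg3, a granin-binding secretory protein, and S100a4, a calcium-binding protein of fibroblasts, the latter at 50.3, 70.7 and 39.7 CPM against 138, 391 and 152 CPM (log2 fold change -1.96, SE 0.137). Cyp26b1, which degrades the retinoic acid that Aldh1a3 makes, fell by 1.62, and Cav1, Enpp2, Nrep and Col4a2 fell by 1.38 to 1.57.

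The promoters at the first and the second RefSeq start of Il33 and that of S100a4 are shown because these genes are among the leading rises and falls of the split. All are on the plus strand of GRCm38.p6, at chr19:29924863-29925162, chr19:29945540-29945839 and chr3:90603520-90603819, with TATAAA and GGAATG on either strand in capitals:
Il33, first start: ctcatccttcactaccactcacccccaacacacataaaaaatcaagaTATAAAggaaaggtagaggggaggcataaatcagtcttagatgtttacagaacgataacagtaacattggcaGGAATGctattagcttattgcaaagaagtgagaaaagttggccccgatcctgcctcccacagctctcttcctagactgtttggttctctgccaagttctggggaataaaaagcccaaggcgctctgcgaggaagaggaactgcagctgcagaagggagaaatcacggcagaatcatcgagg
Il33, second start: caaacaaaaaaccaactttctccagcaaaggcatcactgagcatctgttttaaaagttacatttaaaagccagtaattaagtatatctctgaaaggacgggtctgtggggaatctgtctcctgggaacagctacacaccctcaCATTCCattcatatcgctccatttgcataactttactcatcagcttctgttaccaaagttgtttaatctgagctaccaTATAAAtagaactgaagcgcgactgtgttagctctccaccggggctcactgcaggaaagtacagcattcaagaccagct
S100a4: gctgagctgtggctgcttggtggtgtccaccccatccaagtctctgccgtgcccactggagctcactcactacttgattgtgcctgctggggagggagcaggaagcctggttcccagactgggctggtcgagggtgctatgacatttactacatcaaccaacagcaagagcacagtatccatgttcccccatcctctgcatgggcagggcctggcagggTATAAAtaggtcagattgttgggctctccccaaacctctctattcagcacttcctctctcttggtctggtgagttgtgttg
TATAAA begins 29 bases before the second start of Il33 and 31 bases before that of S100a4. GGAATG was found at both starts of Il33 and not in the window of S100a4. Among the 8 leading genes of the Pi16-leaning side, 2 had promoters in the table, and 6 of the 8 of the Dpp4-leaning side did. These were 3 and 7 promoters. TATAAA was found in 2 of the 3 and 3 of the 7, and GGAATG in 2 of the 3 and 0 of the 7. Over all promoters of the table the shares were 13.6% and 14.7%. For both motifs the 2 of the 3 were the 2 starts of Il33, a single gene. A difference between the sides was not tested.

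**Figure D5:**
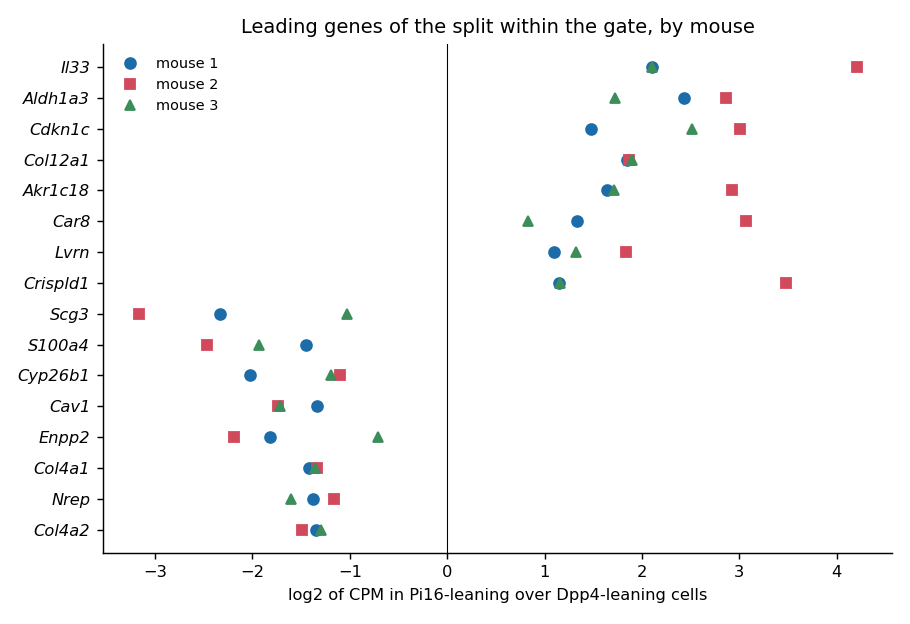
Log2 ratio of CPM in Pi16-leaning over Dpp4-leaning cells (x axis) of the 16 leading genes (y axis), 1 symbol per mouse. The 8 upper genes lie above 0 and the 8 lower genes below 0 in all 3 mice, and mouse 2, with 51 Dpp4-leaning cells, has the largest ratio for most of the upper genes.

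Genes that no condition used also varied among gated cells. At 3000 UMIs per cell, the ratio of variance to mean, which is near 1 for counting noise, had a median of 1.00 over the lowest values of 3409 genes. The nuclear RNA Malat1 had ratios of 24.6, 29.1 and 22.3 in mice 1, 2 and 3, and Col3a1 had 18.9, 19.0 and 16.1. Gsn, which encodes the actin-severing gelsolin, had 12.2, 14.7 and 16.1. The others of the 12 most variable genes that can be named were Col1a1, Mmp3, a stromelysin that degrades matrix, Sparc, Ccl2, Col1a2, Cxcl1, the metallothionein Mt1 and Igfbp5. Ccl2 had ratios of 7.89, 14.2 and 11.7. Of these 11 genes, 10 were again among the first 12 at 2000 UMIs per cell, and Mt1 was not.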

How the data were processed

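The authors deposited raw UMI counts per gene and cell barcode, not normalized. The submitters' processing notes name mm10 and Cell Ranger 2.1.1, the matrix headers version 4.0.0, and the study's methods another version. This was not resolved. The 3 libraries are taken as replicates, 1 mouse each. Libraries had 52, 81 and 64 barcodes in common pairwise (1, 0 and 1 among gated cells). Members and gene lists were chosen with earlier results of these data known.

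Counts of kept cells were summed per mouse and group, so cells were not treated as replicates. Sums were tested with edgeR 4.0.16 in R 4.3.3 (filterByExpr, TMM, quasi-likelihood test, Benjamini-Hochberg adjustment over all genes tested). The mouse was a block, since both sums of a mouse come from the same animal. SE is the absolute log2 fold change over the square root of F. Genes were called at an adjusted p under 0.05 and at least 1.5-fold. The 18 gate genes stayed in the totals and were not tested. Other genes share cells with them, so p-values describe recurrence over mice, not independence from the gate. DESeq2 1.42.0, library size scaling, no low-count filter, other thresholds, equal depth and leaving out each mouse were alternatives. The procedure was also run on simulated counts, drawn with a single dispersion for all genes and without a gate. That run cannot show how the gate or the block shaped the results.

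Among called genes that changed alike in every mouse and reached a mean of 50 CPM in a group, the 15 largest rises and 12 largest falls against all other kept cells were named (only 5 rises were eligible), and 8 of each elsewhere, with the proposed markers, the study's named genes, examples from the lists and the 12 most variable genes. Predicted genes were not named, and 1 gene that the rule selects is not reported here. Gene positions come from GENCODE, in which 32158 of 32285 identifiers were found. Doublets were not removed. Promoters come from RefSeq (GRCm38.p6). Python 3.11.15, scipy 1.17.1 and matplotlib 3.10.9 were used.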

Additional observations from a re-analysis of the deposited data

How the results depend on the processing

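The share of gated cells became 13.35% after thinning to 3000 UMIs, 64.9% with the Dpp4 and Pi16 condition alone and 13.8% with up to 2 UMIs of the Nr4a3 group, and lay between 5.87% and 7.82% with each mouse left out.

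Without the replicate block, counts of genes higher and lower were 0 and 11 against all other kept cells, 969 and 828 against Icam1/Fabp4-gated cells, 18 and 29 against Nr4a3/Fosl1-gated cells, 112 and 52 against Krtdap/Dmkn-gated cells and 7 and 2 for the split by Pi16 and Dpp4. In the same order, dropping the minimum fold gave 474 and 940, 2366 and 2352, 786 and 1248, 780 and 664, and 389 and 282, and a 2-fold minimum gave 9 and 313, 794 and 730, 174 and 176, 229 and 99, and 66 and 58. With DESeq2 the rises were 23, 1088, 176, 224 and 69 and the falls 377, 933, 330, 133 and 73. Leaving out each mouse gave 36 to 69 rises and 450 to 522 falls, 1214 to 1387 and 1139 to 1152, 229 to 418 and 329 to 489, 328 to 433 and 199 to 243, and 116 to 170 and 98 to 132. Rises against all other kept cells were 81 with at least 5 UMIs of Dpp4 and Pi16, 90 after thinning and 74 with the gate read on a random 50% of UMIs. With the Dpp4 and Pi16 condition alone they were 1817, with 2052 falls, and Fam71a (-0.69), Cxcl2 (1.915), Nr4a2 (2.28), Cd55 (3.00) and Mt2 (0.38) changed sign. Thinning gave 247 rises against Nr4a3/Fosl1-gated cells and 55 rises and 38 falls for the split. Among cells with 3 to 10 UMIs of Dpp4 and Pi16, a setting chosen after seeing the data, the split gave 11 rises and 1 fall, and Clec11a (0.058), Cd44 (0.017), Noct (0.10), F3 (0.87), Tmem100 (-0.12), Ptx3 (0.081) and Txnip (0.037) changed sign; of these, the first 3 had been called. Library size scaling gave 808 rises against Nr4a3/Fosl1-gated cells. Cells of 5000 to 15000 UMIs in the last 4 comparisons, and the removal of cells with markers of other classes, were chosen after seeing the data. They kept the counts of all genes called in each comparison within 1.5 times. Counts within lists moved more: for the split, 5 BMP and TGF-beta genes were lower in cells of 5000 to 15000 UMIs where 3 had been. Of the values of single named genes under these settings, 1457 kept their direction and side of the threshold, 113 fell below it, 24 rose above it and 24 changed sign. Besides those above, these were values that passed the threshold under neither setting. Against all other kept cells they were Cd55 with at least 5 UMIs of Dpp4 and Pi16 (0.043), after thinning (0.20), with up to 2 UMIs of the Nr4a3 group (0.077) and with the gate read on 50% of UMIs (0.14), and Clec11a with at least 2 UMIs of Dpp4 and Pi16 (0.12). Tmem100 against Nr4a3/Fosl1-gated cells was 0.19 after thinning, 0.029 in cells of 5000 to 15000 UMIs, 0.11 with library size alone and -0.088 to 0.036 with each mouse left out, above 0 without mouse 1 or 2. For the split, thinning turned Stmn4 (-0.10) and Txnip (0.029). The causes were not tested.

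Depth limits low genes most: in mouse 2, which had 337 gated cells, 3 UMIs correspond to 0.817 CPM.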

Other observations

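Genes that the study used to separate preadipocytes by Cd44 were also measured in the Dpp4/Pi16-gated cells. G0s2 and Txnip were lower than in Icam1/Fabp4-gated cells, with log2 fold changes of -3.095 (SE 0.079) and -2.08 (SE 0.069). Txnip was at 307, 348 and 290 CPM against 1216, 1366 and 1405 CPM. Noct, a circadian deadenylase-related phosphatase, was at 37.2, 14.2 and 43.0 CPM against 95.3, 51.1 and 117 CPM, a log2 fold change of -1.48 (SE 0.101). Cd44, the hyaluronan receptor, was at 55.3, 36.8 and 66.9 CPM against 58.6, 53.3 and 74.3 CPM and did not pass the test (adjusted p = 0.09925, edgeR). Ptx3 and the metallothionein Mt2 differed by less than 1.5-fold. Mt2 was at 989, 1030 and 1351 CPM against 627, 855 and 956 CPM, and was lower than in Nr4a3/Fosl1-gated cells, with a log2 fold change of -0.94 (SE 0.166).

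Cell cycle genes gave no call against all other kept cells in either direction (0 of 16, edgeR; 1 was higher and 2 lower at an unadjusted p under 0.05, and DESeq2 called 0), with a median log2 fold change of 0.13. Over all genes 0.32% were higher and 3.54% lower, so a count of 0 in a list of this size is near the background. Without mouse 1, 4 were called higher. Against Icam1/Fabp4-gated cells, Ccnd1, the D-type cyclin of G1, was higher by 1.86 at 49.6, 48.2 and 44.0 CPM against 9.86, 15.3 and 14.9 CPM, and so was Ccnd3, while Ccnd2 was lower (2 of 14 higher and 1 lower). In that comparison 11.4% of all genes were higher and 10.3% lower, so these counts are near the background. Of 10 growth arrest genes, Cdkn1c was higher by 2.20 and Btg1, Gas6 and Cdkn2c were lower, beside the same shares over all genes. Of 12 interferon-response genes outside the gate, 0 were called against all other kept cells (edgeR; 2 higher and 3 lower at an unadjusted p under 0.05, and DESeq2 called 0), with a median of -0.14, and this count is near the same background. The gate had removed cells with 10 or more UMIs of 4 such genes.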
